A study of Homo sapiens with 6 samples.

Results

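The MYC, MAX and MXD network is a set of transcription factor genes whose products pair with each other through a shared basic helix-loop-helix leucine zipper. The 10 members described here were MYC, MYCN and MYCL, which activate growth genes, MAX, the common partner, MXD1, MXD3, MXD4, MXI1 and MNT, which pair with MAX and repress, and MLX, a MAX-like partner. They were chosen by name from 21447 genes, after each transcript of the files was assigned to its GENCODE gene and the estimated counts of its transcripts were summed. The libraries were bulk RNA-seq of unsynchronized U-2 OS cells, a human osteosarcoma line that is 1 established line with wild-type p53. The untreated group held 3 libraries of cells that were not irradiated, and the IR group held 3 libraries of the same line collected 24 h after 4 Gy of ionizing radiation. The study describes its samples as distinct and independent, but neither it nor the labels say that the libraries of a group came from separate cultures, so P values measure the spread between these libraries, which may be technical.

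MYC binds DNA only as a dimer with MAX, at the short E-box sequence CACGTG, and recruits histone acetyltransferases there. The MXD proteins and MNT compete for MAX and for the same sites, and bring the SIN3 and NCOR corepressors with histone deacetylases. MLX pairs with MondoA (the product of MLXIP) and with MXD1, MXD4 and MNT, which ties the network to glucose sensing. MYC messenger RNA and protein are both short-lived, and MYC and MXD proteins are known to mark cycling and resting cells, respectively.

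The total of estimated counts per library lay between 18573309 and 22953834 in 5 libraries and was 45308792 in IR replicate 3. The deposited table of that library carries a mark that may stand for a repeat run, which the labels do not explain, and it was used as 1 library. Without it MXD4 and MXD1 of the results below were still called higher, MXD3 was called lower, and MYCN was not called. No 2 libraries of a group held the same values within counting noise. CDKN1A, the p53 target that encodes the cell cycle inhibitor p21, was at 122 ± 1.70 CPM (estimated counts scaled to a common library size) in untreated and 351 ± 34.9 CPM in IR libraries (SD, n = 3 each). Of the lineage genes, VIM, SPARC and COL1A1 were each at 1465 CPM or more in every library and RUNX2 was at 11.3 to 16.1 CPM, whereas BGLAP, a late osteoblast marker, was at most 0.244 CPM and ALPL was between 1.70 and 4.95 CPM. ALB and CDKN2A were listed at 0 in all libraries, TERT was at most 0.0977 CPM, and EPCAM, an epithelial gene, was present at 8.55 to 10.6 CPM. The epithelial CDH1 was at 1.87 to 3.43 CPM and the blood cell gene PTPRC at 0.753 to 1.76 CPM, and the part of such transcripts in any result was not tested.

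The E-box was searched in RefSeq promoter windows of 300 bases (250 before to 50 after each start site, build GRCh38.p14), because it is the site that the network itself binds. The letters CACGTG, which read the same on both strands, were in 7.26% of all 35116 windows. Of the 12 windows that matched 9 members by symbol, 3 held them, those of MXD4, MNT and MLX. MXD4 is the member with the smallest adjusted P in the comparison below, and the stretches around these E-boxes are shown 5′ to 3′ on the gene's strand with the E-box in capitals. The MXD4 stretch is chr4:2262322-2262359 on the minus strand and its E-box begins 238 bases upstream of the start site. The MNT stretch is chr17:2401228-2401273 on the minus strand, 193 bases upstream. The MLX stretch is chr17:42567030-42567075 on the plus strand, 50 bases upstream.
MXD4: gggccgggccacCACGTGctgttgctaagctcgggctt
MNT: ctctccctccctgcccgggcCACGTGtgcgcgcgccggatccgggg
MLX: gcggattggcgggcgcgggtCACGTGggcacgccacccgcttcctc

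A match to a cell cycle E2F site was also searched, as TTTCGCGC or TTTGGCGC on either strand, where the reverse complements are GCGCGAAA and GCGCCAAA. These letters were in 1.15% of all windows and in 1 member window, that of MYCN, the member with the largest fall below. The stretch is chr2:15940354-15940401 on the plus strand. The match TTTGGCGC, which begins 176 bases upstream of the start site, is in capitals. The letters GCGCGAAA, which overlap its end and are partly in small letters, are a second match, on the other strand. A match of letters describes the sequence and not a bound site.
MYCN: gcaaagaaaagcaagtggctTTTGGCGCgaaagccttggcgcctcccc

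Levels were compared between genes with the deposited TPM, summed per gene, which scales each transcript by its length and each library to a fixed total. MAX and MYC were the most abundant members, followed by MXI1, MLX, MXD3, MXD4 and MNT, whereas MXD1, MYCL and MYCN were low. In untreated libraries MAX was at 72.6 ± 8.82 TPM and MYC at 63.1 ± 3.81 TPM (SD, n = 3 each), and their ranges overlapped. MXI1 was at 47.0 ± 1.17 TPM and MLX at 25.7 ± 1.15 TPM, and the ranges of MYC, MXI1 and MLX were apart from each other. MXD3, MXD4 and MNT, at 17.1 ± 2.40, 12.0 ± 3.38 and 10.7 ± 1.19 TPM, followed, each overlapping with the next. MXD1 at 2.12 ± 1.07 TPM overlapped with MYCL at 2.04 ± 0.112 TPM, and MYCN was lowest at 1.21 ± 0.305 TPM.

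The order in IR libraries was the same except that MXD4, at 16.4 ± 1.67 TPM, stood above MXD3, at 14.6 ± 2.42 TPM, with overlapping ranges (SD, n = 3 each). MYC gave between 94.4% and 95.7% of the summed TPM of the 3 MYC genes in untreated libraries and between 96.9% and 97.8% in IR libraries. The summed TPM of the MXD genes, MXI1 and MNT was 1.27 to 1.41 times that of the MYC genes in untreated and 0.972 to 1.38 times in IR libraries, so the groups overlapped. With CPM divided by the length of the canonical transcript in place of TPM, 4 of the 10 members kept their rank in untreated libraries, and MAX, MYC and MYCN were still first, second and last.

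**Figure D1:**
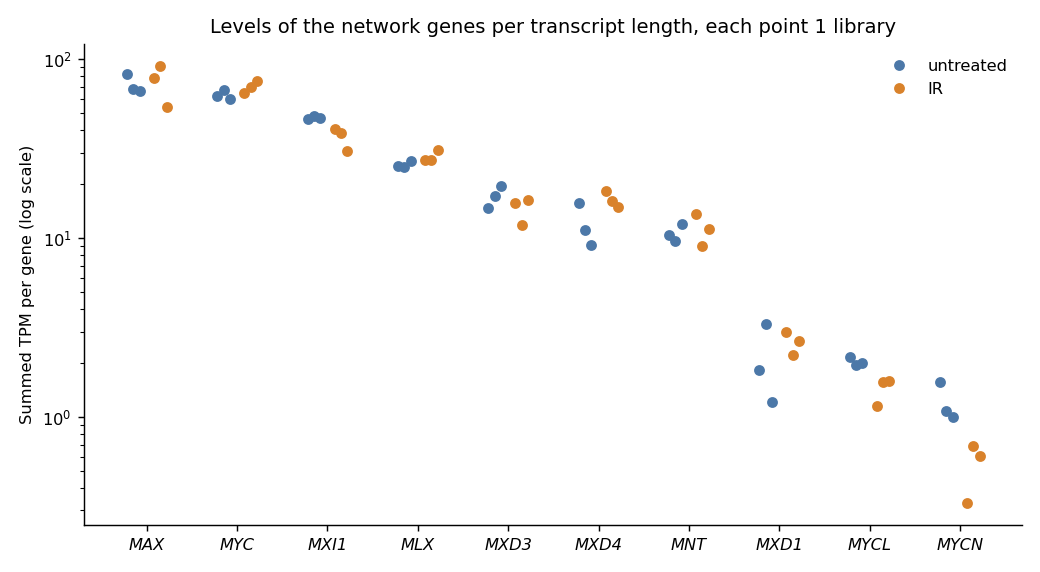
Summed TPM of each of the 10 network genes on a log scale, ordered by the untreated mean, with each point 1 library (blue untreated, orange IR). MAX and MYC lie highest, above 50 TPM in every library, and MYCN lies lowest, with its IR points below its untreated points.

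Of the 10 members, 3 differed between IR and untreated cells, a share near the 30.1% of all 14323 genes tested that did (edgeR quasi-likelihood test, Benjamini-Hochberg adjusted P below 0.05). MXD4 and MXD1 were higher (15.5% of all genes tested were called higher) and MYCN was lower (14.5% were called lower). MYC and MAX, the members with the highest CPM, did not pass the test. In bulk libraries, fewer cells that express a gene and less of its RNA per cell cannot be told apart. The median log2 fold change of the members was 0.08, beside 0.01 over all genes tested. In 6 of the 10 the CPM of the groups did not overlap, beside 47.1% of all genes tested, and for each of these 6 a two-sided exact permutation test gave P = 0.1, the smallest that 3 libraries against 3 allow.

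**Figure D2:**
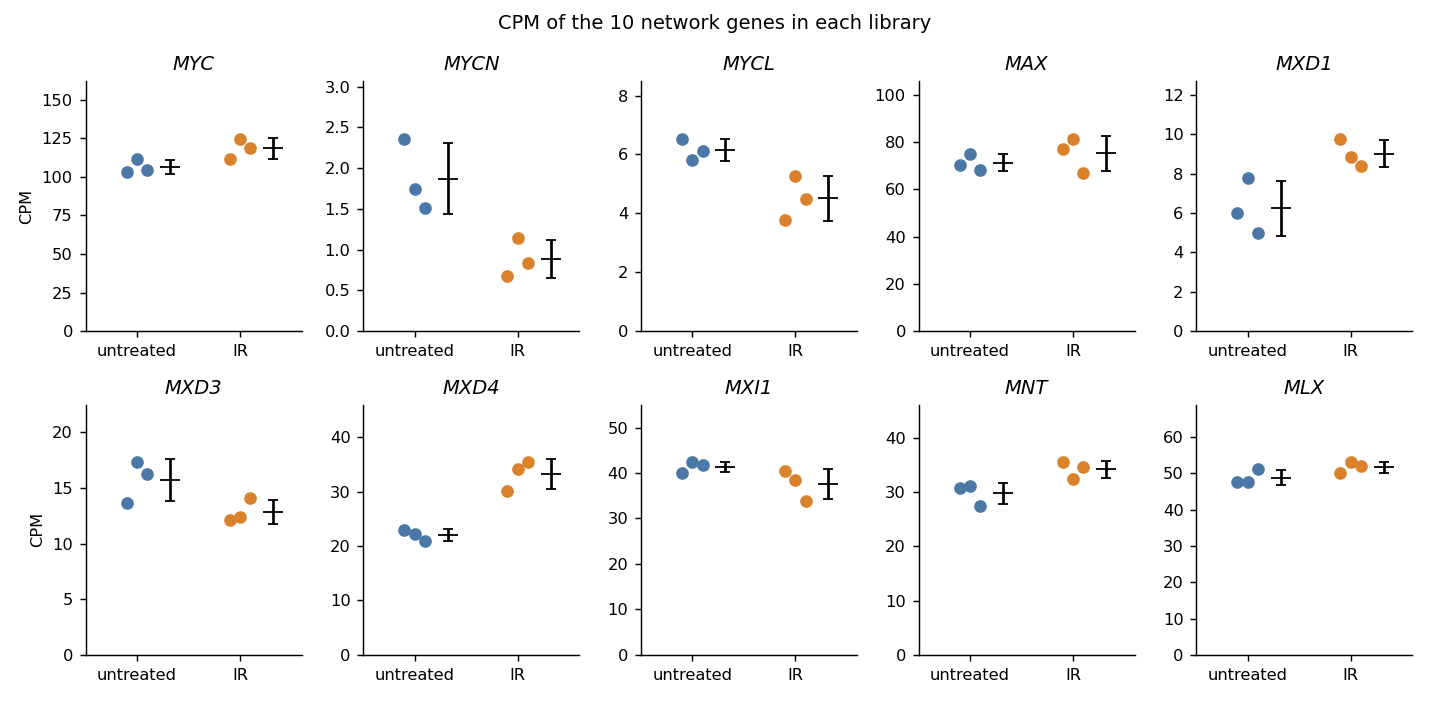
CPM of each network gene in the 3 untreated (blue) and 3 IR (orange) libraries, with the mean and SD (black), on axes that start at 0. The IR points of MXD4 (30.1 to 35.4 CPM) all lie above its untreated points (21.0 to 23.0 CPM), while those of MAX lie among its untreated points.

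MYC (chr8:127735434-127742951, plus strand) reached 102.8, 111.49 and 104.1 CPM in untreated cells and 111.52, 124.6 and 118.9 CPM in IR cells. The groups were apart by the smallest of margins, with IR replicate 1 just above untreated replicate 2. The log2 fold change of MYC was 0.16 (95% interval 0.0044 to 0.31) with an adjusted P of 0.11, so a difference was not called, and the interval leaves room for folds between 1.00 and 1.24. MYC was called under none of the 14 alternative settings.

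MYCN (chr2:15940550-15947007, plus strand), the paralogue best known from neuroblastoma, was at 2.36, 1.74 and 1.51 CPM in untreated and at 0.678, 1.14 and 0.841 CPM in IR libraries. All IR libraries were below all untreated ones, and the level was 0.472 times that of untreated cells (log2 fold change −1.08, SE 0.30, adjusted P = 0.021). These values rest on 14 to 43 estimated counts per library. The call was lost without untreated replicate 1 (adjusted P = 0.091), untreated replicate 2 (0.053), IR replicate 1 (0.058) or IR replicate 3 (0.059), and with a length offset (0.083).

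MYCL (chr1:39895428-39902256, minus strand), the paralogue first found in lung cancer, was at 6.53, 5.80 and 6.11 CPM in untreated and at 3.78, 5.28 and 4.47 CPM in IR libraries. Every IR library was below every untreated one, but the log2 fold change of −0.45 (SE 0.16) had an adjusted P of 0.062. It passed the threshold without IR replicate 2 (adjusted P = 0.049) and with the trend of fold change on GC content removed (0.028).

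MAX (chr14:65006174-65102695, minus strand), the common partner of MYC and the MXD proteins, was at 70.4, 75.1 and 68.1 CPM in untreated and at 77.3, 81.4 and 67.0 CPM in IR libraries. The groups overlapped, and the log2 fold change was 0.07 (95% interval −0.11 to 0.26, adjusted P = 0.52). MAX shares exonic bases with FNTB on the opposite strand, which encodes a farnesyltransferase subunit and fell (log2 fold change −0.32, adjusted P = 0.011, edgeR), and with the readthrough gene CHURC1-FNTB on the same opposite strand, which rose (log2 fold change 1.20, adjusted P = 0.044). Whether strand was used in counting is not given in the sources used here, and the part of their reads in the value of MAX was not tested.

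The MXD genes encode the repressive partners of MAX. MXD4 (chr4:2247432-2262109, minus strand) was at 23.0, 22.2 and 21.0 CPM in untreated and at 30.1, 34.2 and 35.4 CPM in IR libraries. The groups were well apart, and the level was 1.51 times that of untreated cells (95% interval 1.32 to 1.72, log2 fold change 0.59, SE 0.09, adjusted P = 0.0013). The call held without each library in turn, with log2 fold changes of 0.53 to 0.65. Its transcript for the full 209-residue protein alone was at 14.4 to 15.5 CPM in untreated and at 20.7 to 28.1 CPM in IR libraries.

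MXD4 is GC-rich (61.6%, the mean GC content of its transcripts weighted by TPM). With the GC trend removed its log2 fold change was 0.30 (adjusted P = 0.013, edgeR). With an offset for effective length, the call was lost (log2 fold change 0.51, adjusted P = 0.11). On the TPM scale, MXD4 was at 15.7, 11.1 and 9.15 in untreated and at 18.2, 16.2 and 14.9 in IR libraries, so that untreated replicate 1 reached into the IR range.

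MXD1 (chr2:69897688-69942945, plus strand), the first MAD gene, known to be induced as cells differentiate, was at 5.98, 7.76 and 4.98 CPM in untreated and at 9.78, 8.87 and 8.41 CPM in IR libraries. All IR libraries were above all untreated ones, and the level was 1.44 times that of untreated cells (log2 fold change 0.52, SE 0.17, adjusted P = 0.039). The call was lost without untreated replicate 1 (adjusted P = 0.105), untreated replicate 3 (0.113), IR replicate 1 (0.104) or IR replicate 2 (0.078), and with the length offset (0.46). On the TPM scale the groups overlapped, with untreated replicate 2 the highest of all at 3.30. MXD1 shares 237 exonic bases with SNRNP27 on the same strand, whose log2 fold change was −0.09 (adjusted P = 0.49).

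MXD3 (chr5:177301461-177312757, minus strand), the member known to be expressed in S phase, was at 13.7, 17.3 and 16.2 CPM in untreated and at 12.1, 12.4 and 14.1 CPM in IR libraries. The groups overlapped at untreated replicate 1, and the log2 fold change of −0.28 (SE 0.11) did not pass the test (adjusted P = 0.086). MXD3 has the highest GC content of the members (66.9%), and with the GC trend removed it was called lower (log2 fold change −0.75, adjusted P = 7.9e-04, edgeR). It was also called without IR replicate 3 (adjusted P = 0.037). Its transcripts without a complete coding sequence were at 6.02, 6.09 and 5.95 CPM in untreated and 3.69, 3.97 and 3.41 CPM in IR libraries. The canonical 206-residue product of MXD3 was at 6.33, 7.94 and 8.77 CPM in untreated and 7.14, 7.84 and 8.86 CPM in IR libraries. The groups overlapped for that product. MXD3 shares 926 exonic bases on the same strand with RAB24, which rose (log2 fold change 0.43, adjusted P = 0.039), and reads of these bases cannot be told apart. It also shares 1148 exonic bases with PRELID1 on the opposite strand. PRELID1 was at 131 ± 10.1 CPM in untreated and 136 ± 6.36 CPM in IR libraries (SD, n = 3 each). The part of its reads in the value of MXD3 was not tested.

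MNT (chr17:2384073-2401104, minus strand), the most widely expressed antagonist of MYC, was at 30.8, 31.1 and 27.5 CPM in untreated and at 35.5, 32.4 and 34.7 CPM in IR libraries. The groups did not overlap, but the log2 fold change of 0.20 (SE 0.08) had an adjusted P of 0.081, and it was −0.07 with the GC trend removed. MLX (chr17:42567072-42573239, plus strand) was at 47.7, 47.5 and 51.2 CPM in untreated and at 50.0, 53.0 and 52.0 CPM in IR libraries, which overlapped (log2 fold change 0.08, adjusted P = 0.38). MLX shares 775 exonic bases with PSMC3IP on the opposite strand, whose log2 fold change was −0.19 (adjusted P = 0.12, edgeR).

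**Figure D3:**
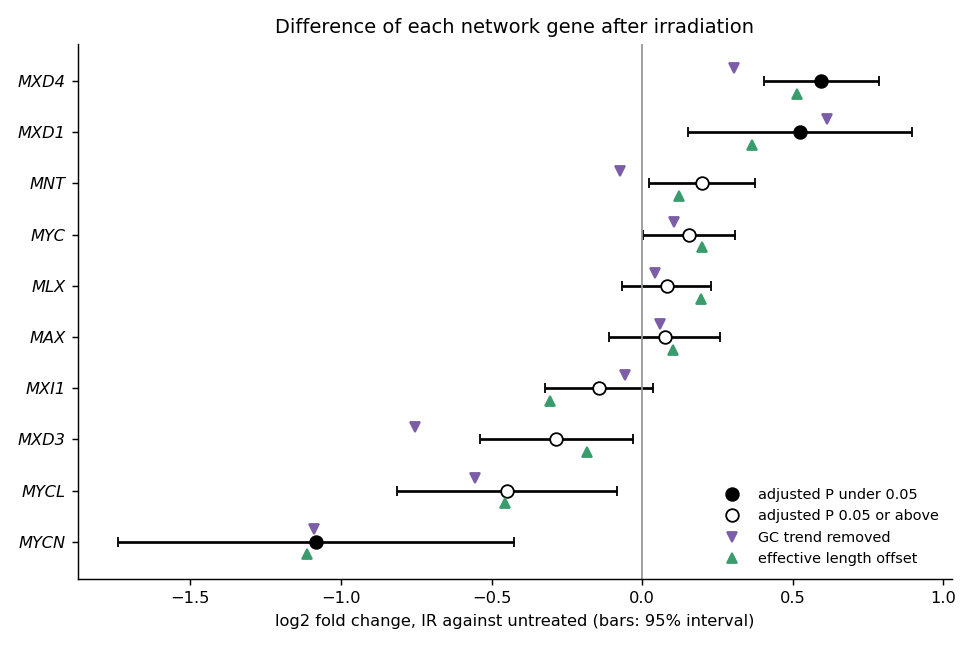
The log2 fold change of each network gene, IR against untreated, with its 95% interval (circles, filled where the adjusted P was under 0.05), beside the values with the GC trend removed (purple) and with an effective length offset (green). MXD4 and MXD1 lie to the right and MYCN to the left, and the GC correction moves MXD3 to −0.75 and MNT to −0.07.

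MXI1 (chr10:110207605-110287365, plus strand), also a MAX partner and known as a gene induced under low oxygen, was at 40.0, 42.3 and 41.7 CPM in untreated and at 40.4, 38.4 and 33.9 CPM in IR libraries. Its sum over transcripts overlapped between the groups at IR replicate 1 (log2 fold change −0.14, adjusted P = 0.21). On the TPM scale MXI1 was at 46.1, 48.3 and 46.6 in untreated and at 40.8, 38.7 and 30.6 in IR libraries, which did not overlap. It was the only member called for transcript usage, a test of whether transcripts of a gene changed unequally (adjusted P = 0.011, edgeR diffSpliceDGE with Simes P values). Of the 10664 genes tested for usage, 2.68% were called. The transcript behind the call was MXI1-202, the canonical form, which begins at the most upstream start site and encodes 295 residues. It had 0 estimated counts in each untreated library and 58.9, 22.3 and 72.6 in the IR libraries, which was at least 37.2-fold higher against a floor of 3 counts over the untreated group. MXI1-202 thus passed the expression filter of the usage test only through the IR group. The usage call therefore gives no separate support for its rise.

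The 100 bases upstream of that start site, chr10:110207505-110207604 on the plus strand of GRCh38.p14, are shown because the form that appeared in IR libraries begins next to them. Neither the E-box nor the E2F letters searched above lie in them.
MXI1: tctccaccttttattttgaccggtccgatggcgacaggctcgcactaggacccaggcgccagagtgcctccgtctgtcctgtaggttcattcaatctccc

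The distal start of MXI1 has 1 other annotated transcript, MXI1-207, which begins 79 bases further on and has no complete coding sequence. It held 3.02, 1.63 and 13.9 estimated counts in untreated and 0 in each of the IR libraries, the reverse of MXI1-202. MXI1-207 was not among the 8 MXI1 transcripts kept in the usage test. Summed over both, the distal start gave 0.166, 0.0728 and 0.681 CPM in untreated and 2.85, 1.22 and 1.61 CPM in IR libraries, which did not overlap, and the ratio of the means was 6.17. The larger bound above therefore rests on how reads were split between both transcripts. The proximal starts, which begin 18388 bases downstream, gave 39.9 to 42.2 CPM in untreated and 32.3 to 37.6 CPM in IR libraries, and so nearly all MXI1 counts. The product of 192 residues, which most of these encode, was at 32.5, 34.2 and 35.3 CPM in untreated and at 26.9, 31.5 and 25.4 CPM in IR libraries. The usage call was lost without any 1 of the untreated libraries (adjusted P = 0.20 to 0.27) and where transcripts had to reach 10 counts in every library, which leaves MXI1-202 out.

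The other members' usage tests had adjusted P values that rounded to 1, and for MYC and MAX the estimated split between transcripts differed strongly between libraries of a group. For MYC, the transcript of 339 residues took 0, 36.4 and 48.7 CPM in untreated cells and 0.723, 46.1 and 0 CPM in IR cells. The common 439-residue form of MYC moved the opposite way, from 41.3 to 96.8 CPM across the 6 libraries, while the sum over all MYC transcripts kept to 102.8 to 124.6 CPM. For MAX, the canonical 160-residue form was at 0.233 CPM in untreated replicate 2 and at 15.6 to 25.7 CPM in the other 5 libraries, while the 151-residue form was highest in that library at 56.1 CPM. The split of MNT was steadier, with the canonical form at 69.8% to 84.4% of MNT counts over the 6 libraries. The sum over transcripts is the level given for each gene.

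Of the wider network, MGA, which encodes a large MAX partner of a repressive Polycomb complex, fell to 0.625 times its untreated level (111.1, 127.2 and 123.7 CPM against 88.1, 75.2 and 63.6 CPM, log2 fold change −0.68, adjusted P = 0.0021, edgeR). All IR libraries were below all untreated ones, and the call was lost with the length offset (adjusted P = 0.068). MLXIP, which encodes MondoA, was at 111 ± 6.75 CPM in untreated and 109 ± 10.1 CPM in IR libraries (SD, n = 3 each) and its log2 fold change was −0.02 (adjusted P = 0.87), although with the GC trend removed it was called lower (−0.19, adjusted P = 0.041). MLXIPL, which encodes the glucose sensor ChREBP, was near the limit of detection, at 1.05 to 8.03 estimated counts in untreated libraries and 12.0 to 28.1 in IR libraries. MLXIPL passed the expression filter only through its IR libraries, and a filter of at least 10 counts in every library left it out. It was called higher (adjusted P = 0.047), but the call held in only 3 of 12 alternatives. Without each library in turn it held only in the fit that left out untreated replicate 2, and the others gave adjusted P values of 0.078 to 0.14. The MondoA targets TXNIP and ARRDC4 were at 0.669 to 2.14 CPM in every library, and neither passed the test (log2 fold changes 0.69 and 0.18, adjusted P = 0.10 and 0.63).

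Cofactors were grouped by the side of the network they serve. Among 12 coactivators of MYC, 4 fell and 1 rose (median log2 fold change −0.17), beside 14.5% of all genes tested that fell and 15.5% that rose. With the length offset 2 fell and 1 rose (median −0.01), and with the GC trend removed 8 fell and 1 rose (median −0.31). The acetyltransferase genes EP300 and CREBBP fell by 0.58 and 0.46 on the log2 scale (SE 0.09 and 0.08, adjusted P = 0.0016 and 0.0024, edgeR), as did TRRAP, the scaffold of MYC-bound acetyltransferase complexes, by 0.41, although not with the length offset (adjusted P = 0.10). KAT2A, which encodes the acetyltransferase GCN5, rose by 0.49 (adjusted P = 0.0019). Among 11 genes of the corepressor side, 2 fell and 1 rose (median −0.08). The scaffold NCOR1 fell from 205 ± 6.04 to 122 ± 8.17 CPM (SD, n = 3 each, log2 fold change −0.75) and SIN3A, which binds the MXD proteins directly, fell by 0.43. ZBTB17, which encodes the MYC partner MIZ1, rose by 0.30 but was not called with the GC trend removed (log2 fold change −0.02), nor without untreated replicate 1, untreated replicate 3, IR replicate 1 or IR replicate 3 (adjusted P = 0.079, 0.083, 0.057 and 0.061).

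Of 15 genes for the turnover of the MYC protein, 8 fell and 3 rose (median log2 fold change −0.24), beside 14.5% and 15.5% of all genes tested. With the length offset 5 fell and 0 rose. The deubiquitinase USP37 fell by 0.65 on the log2 scale, and the ubiquitin ligase HUWE1 by 0.48, of which the latter was at −0.17 and not called with the length offset (adjusted P = 0.31). FBXW7, the ligase subunit that marks phosphorylated MYC for destruction, rose from 30.4 ± 0.867 to 39.9 ± 2.55 CPM (SD, n = 3 each, log2 fold change 0.39, adjusted P = 0.0049, edgeR). With the length offset its value turned to −0.03 (adjusted P = 0.92), and its TPM was 30.4 in untreated and 28.6 in IR libraries on average, with overlapping groups. STUB1, which encodes a ubiquitin ligase that works with chaperones, also rose, by 0.29, although with the GC trend removed it was at 0.00 and was not called. STUB1 was also not called with the length offset (adjusted P = 0.19) or without untreated replicate 1, untreated replicate 2 or IR replicate 2 (0.085, 0.075 and 0.054).

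The target genes did not move as a block. Of 50 targets in ribosome biogenesis and growth, 9 rose and 2 fell, beside 15.5% of all genes tested that rose and 14.5% that fell. Their median was 0.11, beside 0.01 over all genes tested. With the GC trend removed 5 rose and 2 fell (median 0.03). Without IR replicate 3, the library of highest depth, 7 rose and 1 fell (median 0.025). Without IR replicate 2, 6 rose and 0 fell, and without untreated replicate 2, 7 rose and 0 fell. The phosphatase gene DUSP2, the folate carrier SLC19A1 and the pyrophosphatase DCTPP1 rose by 0.81, 0.55 and 0.48 on the log2 scale, whereas UTP20 and DDX18, which act in ribosomal RNA processing, fell by 0.32 and 0.20. With the GC trend removed none of these 5 passed the test. DUSP2 and SLC19A1 were called in all 6 fits without 1 library, UTP20 in 4, and DCTPP1 and DDX18 in 1 each. Without IR replicate 3 the log2 fold change of DCTPP1 was 0.25. With the length offset the calls of DCTPP1, UTP20 and DDX18 were lost (adjusted P = 0.12, 0.078 and 0.10, edgeR).

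Of 9 cell cycle targets, 4 fell and 1 rose (median −0.18), beside 14.5% of all genes tested that fell and 15.5% that rose. However, 1 fell and 1 rose without untreated replicate 1, and 2 fell and 1 rose without IR replicate 2. The centriole kinase PLK4 fell by 0.57 on the log2 scale, the phosphatase CDC25A by 0.28 and the helicase subunit MCM4 by 0.27, while the cyclin CCND2 rose from 135 ± 3.69 to 209 ± 9.29 CPM (SD, n = 3 each, log2 fold change 0.63). The calls of PLK4 (log2 fold change −0.27, adjusted P = 0.24) and MCM4 (adjusted P = 0.096) were lost with the length offset, that of MCM4 also without untreated replicate 1 (0.061), and that of CDC25A without untreated replicate 1, untreated replicate 3, IR replicate 1 or IR replicate 2 (adjusted P = 0.068, 0.087, 0.052 and 0.064).

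Of 14 tested metabolic and textbook E-box targets, 3 fell and 1 rose (median −0.06), near the 30.1% of all genes tested that were called, and without any 1 of the untreated libraries 1 fell and 1 rose. PTMA, NCL and ODC1, the polyamine enzyme, fell by 0.31, 0.27 and 0.23, and the nucleoside diphosphate kinase NME1 rose by 0.34 (adjusted P = 0.0061, 0.044, 0.020 and 0.0049, edgeR). The calls of NCL and ODC1 were lost with the length offset (adjusted P = 0.16 and 0.12) and without any 1 of the untreated libraries. Both were also lost with the replicate number as a block (0.083 and 0.055). That of NCL was lost with the GC trend removed (0.064), and that of ODC1 without IR replicate 2 (0.068).

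Of 10 genes known to be repressed by MYC, 3 rose and 1 fell, beside 15.5% of all genes tested that rose and 14.5% that fell. Their median log2 fold change of 0.01 was that of all genes tested (0.01). CDKN1A rose by 1.53 and GADD45A by 0.80 on the log2 scale, and both are also p53 targets, while the ferritin gene FTH1 rose by 0.25. The call of FTH1 was lost with the length offset (adjusted P = 0.15) and without untreated replicate 1 or 2 (0.060 and 0.068). CDKN1B, which encodes the inhibitor p27, fell by 0.44 (adjusted P = 0.00365, edgeR).

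**Figure D4:**
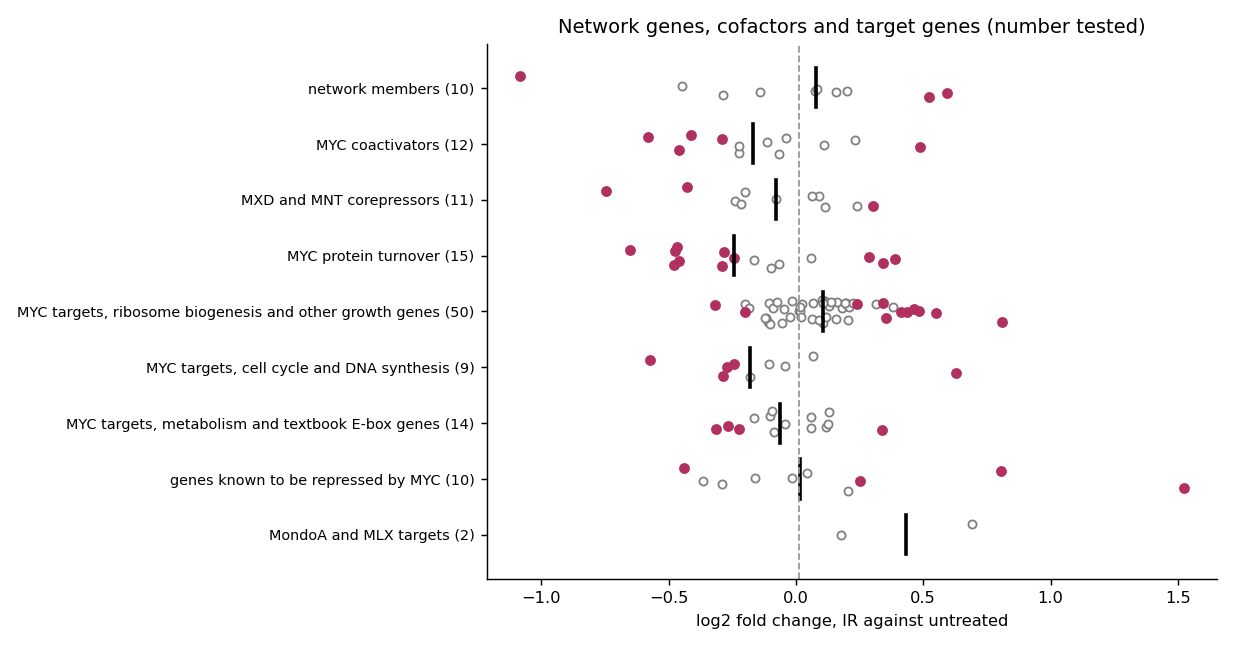
The log2 fold change, IR against untreated, of every tested gene of the network and of each list (filled where the adjusted P was under 0.05, black bar the median, dashed line the median of all genes tested). Medians lie between −0.24 for the turnover list and 0.11 for the growth targets, apart from the MondoA targets, which are 2 low genes.

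Likeness of pattern was described by the Pearson correlation of log2 CPM over the 6 libraries among 10135 genes with a mean of at least 10 CPM. SLC38A7, ATXN7L2 and ZFP64 were most like MYC, with r of 0.994, 0.992 and 0.981. KCNJ5-AS1, CD58 and TOB1 were most like MAX, with r of 0.982, 0.980 and 0.978. The points of each pair share library and depth, and the genes were picked as the highest among many.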

How the data were processed

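RNA of 3 untreated and 3 IR libraries was measured. Per the labels and the study's methods, the authors trimmed reads with fastp and quantified them with kallisto (versions not given in the sources used here) against GENCODE release 37 (GRCh38). The deposited values were estimated counts, TPM and effective lengths (another measure, in bases) per transcript. The labels name an mRNA kit and the methods a total RNA kit. Whether counting used strand is not given in the sources used here.

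Identifiers of 158591 transcripts were found in GENCODE release 44 and 2457 were not (holding 1.54% to 1.80% of counts), and counts were summed per gene and rounded. CPM used TMM library sizes. edgeR 4.0.16 (R 4.3.3, limma 3.58.1) quasi-likelihood tests were run on 14323 genes that passed filterByExpr, with Benjamini-Hochberg adjustment at 0.05, and diffSpliceDGE on transcripts. Scripts were tested on simulated data. Alternatives were other filters, DESeq2 1.42.0 size factors or its Wald test, a likelihood ratio test, a replicate block, a GC correction, an offset for effective length and fits without each library in turn. The members and lists were chosen with earlier results of these data known. Named list genes were the 3 called genes with the highest and the 3 with the lowest log2 fold change, of which some are not reported here. Estimated counts carry counting error and the uncertainty of splitting reads between transcripts. Protein sequences were not used here.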

Additional observations from a re-analysis of the deposited data

How the results depend on the processing

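Over 14 alternative settings, the 10 members gave 140 values, of which 124 kept their direction and their side of the threshold. The log2 fold change of MNT turned to −0.073 with the GC trend removed. With the effective length offset the calls of MYCN (−1.11), MXD1 (0.37) and MXD4 (0.51) were lost, the genes called fell from 4307 to 1708, and the calls in the lists from 43 to 24. With the GC trend removed MYCL (−0.55) and MXD3 (−0.75) were called. Leaving out each library gave 2582 to 4398 called genes, 29 to 44 called list genes, and log2 fold changes of −1.27 to −0.89 for MYCN, 0.38 to 0.72 for MXD1, −0.56 to −0.36 for MYCL and −0.37 to −0.21 for MXD3. Called genes of a list moved by over 1.5 times with the length offset for coactivators (5 to 3), turnover (11 to 5), growth (11 to 5), cell cycle (5 to 3) and metabolic genes (4 to 2), with the GC trend removed for coactivators (9) and growth genes (7), with DESeq2's Wald test for corepressors (6), and with the block for metabolic genes (2). Leaving out 1 library did so for cell cycle genes (2 without untreated replicate 1, 3 without IR replicate 2), metabolic genes (2 without any untreated library) and growth genes (6 without IR replicate 2, 7 without untreated replicate 2). FBXW7 turned to −0.034 with the length offset and ZBTB17 to −0.017 with the GC trend removed. MLXIP changed sign without untreated replicate 1 (0.0038), untreated replicate 2 (0.0051) or IR replicate 2 (0.023), within a range of −0.11 to 0.023, and was called with the GC trend removed (−0.19). Usage of MXI1 had adjusted P values of 0.012 to 0.27 over these settings, with 0 to 1 members called, and 1.0 with 0 members called where transcripts had to reach 10 counts in every library. Genes called for usage numbered 286, 65 under that filter and 444 without untreated replicate 3. In comparisons chosen after seeing the data, log2 ratios of mean CPM were taken for the canonical transcript alone. They were −0.80 for MYC, 0.62 for MYCL and 0.39 for MXD3, opposite to the gene's. The canonical MYC transcript held only 0.237% to 0.715% of MYC counts per library, and for MYCL and MXD3 the groups overlapped. CPM per kilobase of the canonical transcript kept the rank of 4 of 10 members. The cause was not tested in these cases. Same-numbered libraries did not deviate together (correlations −0.017, 0.0072 and −0.052). With the replicate number as a block 3351 genes were called (4307 without it), 149 for usage, the members called were the same 3 genes, MXI1 usage had an adjusted P of 0.039, and MLXIPL was no longer called (0.060). Genes with under 1 CPM, such as MLXIPL, are limited by depth.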
